A study of Mus musculus with 4 samples.

Results

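Early neural genes were followed in 46C mESCs with and without *Rhox6* knockdown. They comprise 8 of the 920 genes in the deposited table: the transcription factor genes *Pax6*, *Meis1*, *Meis2*, *Sox1* and *Sox3*, and the adhesion genes *Ncam1*, *Nrcam* and *Cdh2*. These genes were chosen by name, with their levels in these same libraries already known, and the authors had marked all 920 genes of the table as significantly different between the groups. The comparison of *Rhox6* shRNA with *scramble* is therefore given as a description, with no test.

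The cells were 46C mESCs, a mouse embryonic stem cell line in which GFP was placed at an allele of *Sox1* as a reporter of neural cells. They were infected with lentivirus carrying a *scramble* control or a *Rhox6* shRNA, kept for 24 h in medium with serum and lysed in Trizol, and 2 libraries per group were sequenced. Both groups thus carry the reporter and a lentivirus, and LIF, part of the study's usual mESC medium, is not named for these samples. No source says whether the 2 libraries of a group were separate cultures, so their spread may be technical, and which of the study's hairpins each library carried could not be settled. *Rhox6* itself was not analysed here, so the knockdown was not checked against the labels.

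The mammalian neural plate forms from ectoderm that escapes BMP signalling, and its cells express the group B1 Sox factors *Sox1*, *Sox2* and *Sox3*. *Pax6*, a paired box and homeobox factor, and the TALE homeobox factors *Meis1* and *Meis2* follow in neural progenitors, where MEIS proteins act as partners of other homeodomain factors. Neural plate cells also exchange E-cadherin for N-cadherin, the product of *Cdh2*, and neural cells carry the immunoglobulin-type adhesion proteins NCAM1 and NRCAM on their surface.

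A pair of the members are close relatives in each of the Sox and Meis families, and their coding sequences are shown because reads from a shared stretch could be counted for either gene. In each pair the capitals mark the bases that differ, and all sequences run 5′ to 3′. The first pair is bases 172 to 408 of the *Sox1* coding sequence (chromosome 8, + strand) and bases 451 to 687 of that of *Sox3* (chromosome X, − strand), in a stretch that holds most of the DNA-binding HMG box. Of its 237 bases, 215 were identical (90.7%).
Sox1: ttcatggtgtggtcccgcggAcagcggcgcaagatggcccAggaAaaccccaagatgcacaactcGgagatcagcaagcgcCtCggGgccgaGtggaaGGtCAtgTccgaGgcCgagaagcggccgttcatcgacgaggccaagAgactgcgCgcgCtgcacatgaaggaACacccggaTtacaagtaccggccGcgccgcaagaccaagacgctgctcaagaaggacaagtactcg
Sox3: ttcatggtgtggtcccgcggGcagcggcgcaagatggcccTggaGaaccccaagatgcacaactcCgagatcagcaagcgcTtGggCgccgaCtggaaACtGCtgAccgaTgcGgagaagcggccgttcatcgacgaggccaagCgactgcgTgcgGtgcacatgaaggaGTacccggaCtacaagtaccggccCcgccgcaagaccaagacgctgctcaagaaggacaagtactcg
The second pair is bases 835 to 1023 of the *Meis1* coding sequence (chromosome 11, − strand) and bases 847 to 1035 of that of *Meis2* (chromosome 2, − strand). This stretch holds most of the homeodomain. Of its 189 bases, 163 were identical (86.2%).
Meis1: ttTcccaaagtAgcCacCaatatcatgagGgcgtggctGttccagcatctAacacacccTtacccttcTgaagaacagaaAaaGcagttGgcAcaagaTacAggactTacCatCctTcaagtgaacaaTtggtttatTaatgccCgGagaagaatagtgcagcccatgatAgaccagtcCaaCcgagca
Meis2: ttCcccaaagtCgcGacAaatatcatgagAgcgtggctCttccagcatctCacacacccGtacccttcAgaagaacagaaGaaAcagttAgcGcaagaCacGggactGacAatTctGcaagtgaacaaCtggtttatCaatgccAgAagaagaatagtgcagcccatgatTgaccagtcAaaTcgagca
Over the whole aligned coding sequence, *Sox1* and *Sox3* were 77.5% identical, with a longest identical run of 45 bases, and *Meis1* and *Meis2* were 76.7% identical, with a longest run of 23 bases. No stretch of 50 bases was common to the annotated transcripts of *Sox1* and *Sox3*, or to those of *Meis1* and *Meis2*. The length of the study's reads is not given in the sources used here.

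The promoter windows of *Pax6* and *Sox1* are shown as those in which the motif search and the CpG content stood out most among the member windows searched. The RefSeq windows (build GRCm38.p6) run from 250 bases before to 50 bases after a start site. Of the 8 genes, 5 matched windows, with 2 start sites for *Pax6* and 1 each for *Meis1*, *Meis2*, *Sox1* and *Nrcam*, and *Sox3*, *Ncam1* and *Cdh2* did not. Searched on both strands were TGACAG (MEIS factors), ACAAAG and ATTGTT (SOX factors) and TAAT (homeodomain factors), and capitals mark the matches. The downstream *Pax6* start is at chr2:105682213-105682512 on the + strand, and the *Sox1* window at chr8:12395269-12395568 on the + strand.
Pax6: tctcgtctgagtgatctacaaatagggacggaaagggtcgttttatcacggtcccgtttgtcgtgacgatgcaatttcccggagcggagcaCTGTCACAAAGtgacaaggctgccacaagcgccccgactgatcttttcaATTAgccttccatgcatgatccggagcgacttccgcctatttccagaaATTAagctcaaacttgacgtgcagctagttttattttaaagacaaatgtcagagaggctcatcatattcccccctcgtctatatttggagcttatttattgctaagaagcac
Sox1: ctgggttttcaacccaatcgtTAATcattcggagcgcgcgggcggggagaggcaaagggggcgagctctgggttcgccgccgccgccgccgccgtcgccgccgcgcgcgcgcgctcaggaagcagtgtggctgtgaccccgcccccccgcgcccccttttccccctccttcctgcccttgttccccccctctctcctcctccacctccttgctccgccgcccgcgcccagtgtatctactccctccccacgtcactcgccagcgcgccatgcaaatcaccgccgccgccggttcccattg
The *Pax6* window held 1 match to TGACAG and 1 to ACAAAG, which overlap each other, and 2 matches to TAAT. It was the only one of the 6 member windows with a MEIS or a SOX match, and TGACAG is found in 19.2% and ACAAAG in 18.7% of all 32851 windows. TAAT was found in 4 of the 6 windows and in 58.0% of all windows. The *Sox1* window had 37 CpG dinucleotides and a ratio of observed to expected CpG of 1.07, above that of 97.0% of all windows. The ratio in the member windows ranged from 0.589 in *Meis1* to this value, with a median of 0.840, beside 0.538 in the windows of the listed genes and 0.384 in all windows. A match is only a run of letters and was not tested as a binding site.

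All 8 genes were higher in *Rhox6* shRNA than in *scramble* mESCs, with ratios of the mean levels from 2.25 for *Nrcam* to 6.97 for *Pax6*. In each gene, the lower *Rhox6* shRNA library exceeded the higher *scramble* library. The authors gave no name to the unit of the levels, so no gene is read here as more abundant than another. Sums over lists, distances between profiles and the grouping of genes by level do pool genes in the deposited unit and depend on it. The values are RNA-seq levels of these libraries, and no other assay of these genes was analysed here. In these bulk samples, more cells that express a gene and more RNA of it per cell cannot be told apart. The same separation was seen in 54.1% of all listed genes, which were selected on this difference, so nothing is read from the members' count. The log2 difference below is between the group means of log2(level + 1), and its standard error (SE) comes from the spread of the 2 libraries per group. Adding 1 makes this difference smaller than the log2 of the ratio for genes at low levels.

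*Pax6* (ENSMUSG00000027168, chr2:105668900-105697364, + strand, GRCm38) directs eye and forebrain development and is used as a marker of neural progenitors. Its level was 0.21 and 0.44 in *scramble* and 1.87 and 2.66 in *Rhox6* shRNA mESCs. The means were 0.325 ± 0.163 and 2.27 ± 0.559 (SD, n = 2), which is a log2 difference of 1.30 (SE 0.216). The *scramble* libraries differed 2.10-fold between themselves, and the 4 ratios of a *Rhox6* shRNA to a *scramble* library ran from 4.25 to 12.7. *Pax6* thus had the highest ratio of the 8 genes and a wide range of it.

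*Meis1* (ENSMUSG00000020160, chr11:18879817-19018985, − strand) encodes a TALE homeodomain partner of HOX and PBX proteins. Its level was 0.16 and 0.44 in *scramble* and 1.33 and 2.08 in *Rhox6* shRNA mESCs. The means of 0.300 ± 0.198 and 1.71 ± 0.530 (SD, n = 2) gave a ratio of 5.68 and a log2 difference of 1.05 (SE 0.255). The lower *scramble* library was the first for both *Pax6* and *Meis1*, and the lower *Rhox6* shRNA library was also the first for both. For *Meis1* the ratios of library pairs ran from 3.02 to 13, the widest range among the members.

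*Meis2* (ENSMUSG00000027210, chr2:115863064-116065839, − strand), the paralog of *Meis1*, is expressed in the developing forebrain and midbrain. Its level was 0.79 and 0.43 in *scramble* and 2.65 and 2.79 in *Rhox6* shRNA mESCs, with means of 0.610 ± 0.255 and 2.72 ± 0.0990 (SD, n = 2). The ratio was 4.46, the log2 difference was 1.22 (SE 0.164), and the pairs ran from 3.35 to 6.49. Here the first *scramble* library was the higher one, the reverse of *Meis1*, while the *Rhox6* shRNA libraries were within 1.05-fold of each other.

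*Sox1* (ENSMUSG00000096014, chr8:12395295-12400126, + strand) is among the earliest factors restricted to the neural plate, and it marks neural cells in the 46C line. Its level was 0.48 and 0.60 in *scramble* and 1.70 and 1.82 in *Rhox6* shRNA mESCs, with means of 0.540 ± 0.0849 and 1.76 ± 0.0849 (SD, n = 2). The ratio was 3.26 (pairs from 2.83 to 3.79) and the log2 difference was 0.84 (SE 0.0644), the smallest of the 8 genes on that scale. *Sox1* had the closest libraries of the 5 transcription factor genes on the log2 scale.

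*Sox3* (ENSMUSG00000045179, chrX:60891366-60893430, − strand), a single-exon gene, belongs with *Sox1* to group B1 and is expressed in the epiblast before the neural plate. Its level was 1.29 and 1.53 in *scramble* and 4.58 and 3.59 in *Rhox6* shRNA mESCs, with means of 1.41 ± 0.170 and 4.09 ± 0.700 (SD, n = 2). The ratio was 2.90 (pairs from 2.35 to 3.55) and the log2 difference 1.07 (SE 0.158). Among the 5 transcription factor genes this was the lowest ratio, and the only one with the first *Rhox6* shRNA library above the second.

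**Figure D1:**
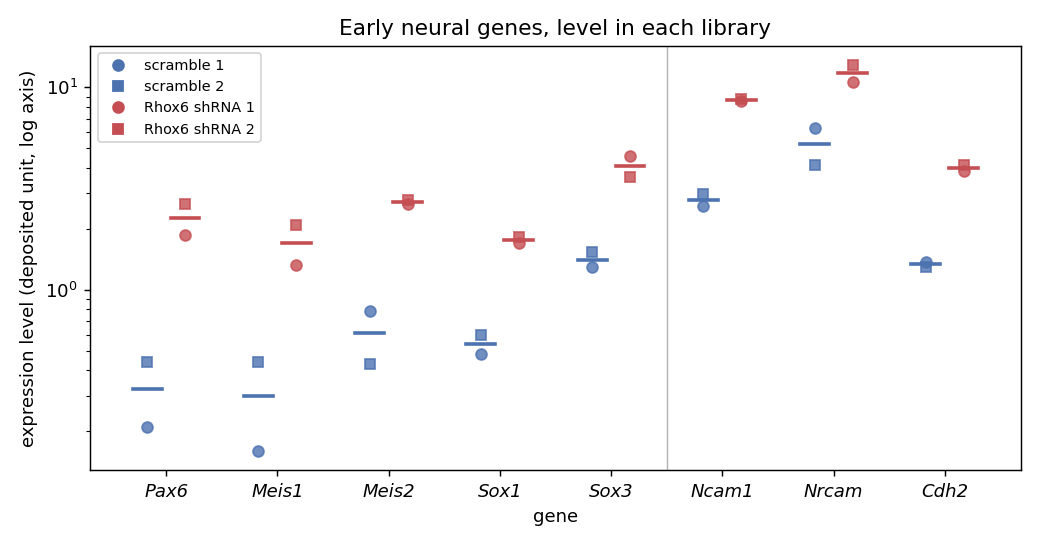
Expression level (vertical axis, deposited unit, log scale) of the 8 genes (horizontal axis, transcription factor genes left and adhesion genes right of the grey line) in *scramble* (blue) and *Rhox6* shRNA (red) mESCs, with circles for library 1, squares for library 2 and lines for the means. Red symbols lie above blue ones in each gene, with the narrowest gap in *Nrcam*, from 6.33 to 10.67.

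*Ncam1* (ENSMUSG00000039542, chr9:49502136-49798925, − strand) encodes the neural cell adhesion molecule, which binds its like on neighbouring cells. Its level was 2.59 and 2.97 in *scramble* and 8.52 and 8.72 in *Rhox6* shRNA mESCs, with means of 2.78 ± 0.269 and 8.62 ± 0.141 (SD, n = 2). The ratio was 3.10 (pairs from 2.87 to 3.37), and the log2 difference of 1.35 (SE 0.0741) was the highest of the 8 genes. The *scramble* libraries were within 1.15-fold and the *Rhox6* shRNA libraries within 1.02-fold of each other.

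*Nrcam* (ENSMUSG00000020598, chr12:44328885-44601964, + strand) encodes an L1-family adhesion protein of axons and nodes of Ranvier. Its level was 6.33 and 4.13 in *scramble* and 10.67 and 12.87 in *Rhox6* shRNA mESCs, with means of 5.23 ± 1.56 and 11.8 ± 1.56 (SD, n = 2). The ratio was 2.25 (pairs from 1.69 to 3.12) and the log2 difference was 1.05 (SE 0.286), the largest SE of the members. The lowest pair ratio was close to the 1.53-fold difference between the *scramble* libraries.

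*Cdh2* (ENSMUSG00000024304, chr18:16588877-16809246, − strand) encodes N-cadherin, a calcium-dependent adhesion protein of neural and mesenchymal cells. Its level was 1.38 and 1.29 in *scramble* and 3.85 and 4.14 in *Rhox6* shRNA mESCs, with means of 1.34 ± 0.0636 and 3.995 ± 0.205 (SD, n = 2). The ratio was 2.99 (pairs from 2.79 to 3.21) and the log2 difference was 1.10 (SE 0.0503), the smallest SE of the 8 genes.

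In order of their ratios the genes were *Pax6*, *Meis1*, *Meis2*, *Sox1*, *Ncam1*, *Cdh2*, *Sox3* and *Nrcam*. The ranges of the library pairs overlapped between all neighbours in this order, so their order is not separated from the spread. *Pax6*, with a lowest pair of 4.25, lay above the whole range of *Sox1*, *Ncam1*, *Cdh2*, *Sox3* and *Nrcam*, whose highest pair was 3.79. The median ratio was 4.46 for the transcription factor genes and 2.99 for the adhesion genes. On the log2(level + 1) scale, the transcription factor genes ran from 0.84 (*Sox1*) to 1.30 (*Pax6*). The adhesion genes ran from 1.05 (*Nrcam*) to 1.35 (*Ncam1*), so these ranges overlapped. No difference between the kinds of gene is read from the median ratios. In all 8 genes the lowest pair ratio was above the ratio of the libraries within either group. The share of all listed genes with this trait was not computed, and these were selected on the same difference, so nothing is read from this count.

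**Figure D2:**
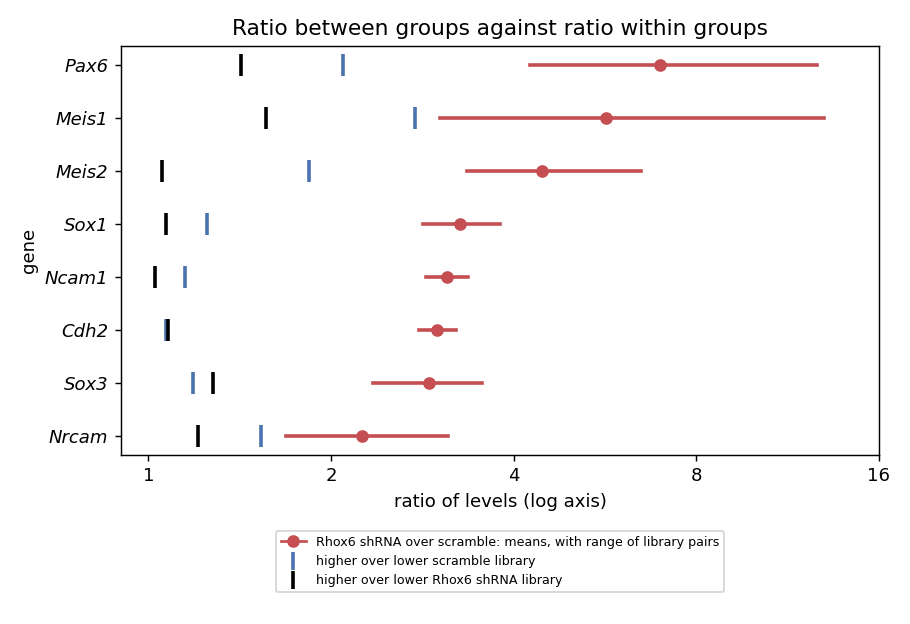
Ratio of levels (horizontal axis, log scale) for each gene in order of its ratio: red points give the ratio of the *Rhox6* shRNA to the *scramble* mean, red lines the range of the 4 library pairs, and blue and black ticks the higher over the lower library within *scramble* and within *Rhox6* shRNA. Red lines start to the right of both ticks in each gene, with *Meis1* (2.75 against 3.02) and *Nrcam* (1.53 against 1.69) the nearest.

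The members were set beside the other listed genes. A log2 difference of at least 1 was reached by 7 of the 8 genes, all but *Sox1*, and by 31.0% of all listed genes in the same direction (285 genes, beside 157 at least 1 lower). When each library was scaled to the same sum of listed levels, the split over all genes was 147 higher and 254 lower. The members' count was then 3 (*Pax6*, *Meis2* and *Ncam1*), and it was 0 with scaling by the median ratio, although all 8 differences stayed above 0. These scalings moved the median of all listed genes from 0.56 to 0.45 and 0.14, and that of the members from 1.08 to 0.90 and 0.55. The former median pools genes that were higher with genes that were lower. Over the 503 listed genes with a higher mean, the median before scaling was 1.05, close to the 1.08 of the members. With the median-ratio scaling the *Nrcam* groups overlapped. Since the scalings use listed genes only, and these were selected for their difference, the choice between them cannot be made from the table.

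The 503 listed genes with a higher mean in *Rhox6* shRNA mESCs on the log2 scale had a median ratio of 2.88, and 7 of the members, all but *Nrcam*, were above it. *Pax6*, *Meis1*, *Meis2* and *Sox1* had *scramble* means under 1, as did 248 listed genes (27.0%). Of the listed genes under 1 in *scramble*, 207 were higher in *Rhox6* shRNA mESCs, with a median ratio of 3.87, and the ratio of *Sox1* lay below it and those of the other 3 above it. The 296 higher genes that started at 1 or more had a median ratio of 2.55. Each *Rhox6* shRNA library was more than 2-fold above each *scramble* library for 7 members, again all but *Nrcam*, and for 42.9% of the listed genes. Within groups, the median SD on the log2 scale was 0.161 over the members and 0.118 over all listed genes, and 3 members were below the latter. In rank of ratio among the 920 genes, *Pax6* was at 44, *Meis1* at 64, *Meis2* at 104 and *Nrcam* at 412.

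**Figure D3:**
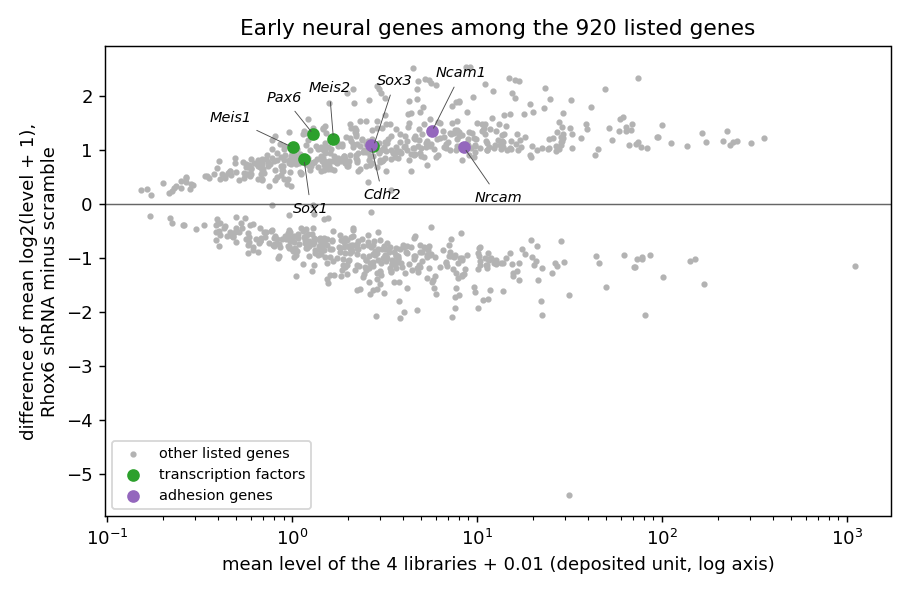
Difference of mean log2(level + 1), *Rhox6* shRNA minus *scramble* (vertical axis), against the mean level of the 4 libraries (horizontal axis, log scale, deposited unit plus 0.01), for the 920 listed genes in grey and the 8 early neural genes in color. The members lie between 0.84 and 1.35, inside the upper cloud of listed genes at the same levels.

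Genes that overlap a member or share its bases could affect the counting of reads, whose use of strand is not given in the sources used here. *Meis1* shared 1029 of its 10532 exonic bases (9.77%) with *Gm37818* on the same strand and 896 (8.51%) with the antisense gene *Gm16140*. *Ncam1* shared 417 exonic bases (4.81%) with the antisense gene *Gm11149*, and *Sox1* shared 86 (1.78%) with the miRNA gene *Gm25239*. These 4 genes were not analysed here. Of the 50-base stretches in the transcripts of each gene, 16.98% in *Meis1* and 3.06% in *Ncam1* were also found in other genes, against 0.77% or less in each of the other 6, so the values of *Meis1* are the least certain in this respect.

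Other genes of the members' families were taken from lists of neural and lineage genes, whose members that are not in the table were not analysed here. Of 40 neural transcription factor genes 8 were listed, of which 7 had both *Rhox6* shRNA libraries higher, 0 were lower and 1 overlapped, beside 54.1% higher over all listed genes. Of these 7, 5 are the members, chosen with their levels known, so the list adds 3 genes, *Sox21*, *Id4* and *Zfp521*, of which 2 were higher. *Sox21*, a group B2 factor known in chick to counteract the group B1 factors, was at 1.54 and 1.44 in *scramble* and 11.17 and 9.81 in *Rhox6* shRNA mESCs. Its ratio of 7.04 was close to that of *Pax6*, from libraries much nearer to each other. *Id4*, an inhibitor of basic helix-loop-helix factors, was at 0.92 and 0.88 against 3.19 and 3.33. *Zfp521*, a zinc finger factor of early neural differentiation, was at 0.22 and 1.11 against 1.11 and 1.31, so its groups met.

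In the TALE family, *Pknox2* was the third listed gene of 18, at 0.72 and 0.65 in *scramble* and 2.32 and 1.76 in *Rhox6* shRNA mESCs. Its ratio of 2.98 was below those of *Meis1* and *Meis2*. Of 20 Sox genes 5 were listed, with 4 higher and 1 lower, beside 54.1% higher over all listed genes. *Sox1* and *Sox3* are members chosen with their levels known and *Sox21* is given above, so nothing is read from this count. *Sox6* was higher at low levels (0.12 and 0.10 against 0.28 and 0.47), and *Sox18*, a factor of endothelial cells, was lower (1.64 and 1.33 against 0.39 and 0.44). *Pax6* was the only one of 9 Pax genes, *Ncam1* and *Nrcam* the only ones of 24 immunoglobulin-type adhesion genes and *Cdh2* the only one of 19 classical cadherins in the table. The sign of the difference held with both scalings in all these genes, although the *Nrcam* groups overlapped in the second.

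Of 12 neuronal genes 3 were listed, 1 higher and 2 lower, with a median log2 difference of -0.95. Over the whole table, 407 of 920 genes had both *Rhox6* shRNA libraries lower, so nothing is read from a count of 3. *Elavl3*, a neuronal RNA-binding protein, was at 6.71 and 5.97 in *scramble* and 2.78 and 2.79 in *Rhox6* shRNA mESCs. *Syp*, the synaptic vesicle protein synaptophysin, was at 2.59 and 2.58 against 0.77 and 0.70. *Nefl*, the neurofilament light chain, was higher, at 3.63 and 4.32 against 8.05 and 8.70, but its groups overlapped with scaling by the median ratio. The summed level of the 3 genes was between 12.87 and 12.93 in *scramble* and between 11.60 and 12.19 in *Rhox6* shRNA mESCs. None of 10 glial genes was listed.

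Of 17 progenitor and Notch genes 3 were listed, *Vim* and *Ednrb* higher and *Dll3* lower, and nothing is read from so small a count. *Vim*, the intermediate filament vimentin of progenitors and mesenchymal cells, was at 80.99 and 93.53 in *scramble* and 195.28 and 177.12 in *Rhox6* shRNA mESCs, and *Dll3*, a divergent Notch ligand, was lower at 5.0 and 4.42 against 1.90 and 1.60. *Cdh2* and *Ncam1* also belong to a list of 18 epithelial and mesenchymal genes, of which 10 were listed. The 5 mesenchymal genes (*Vim*, *Zeb1*, *Twist1*, *Cdh2* and *Ncam1*) were higher and the 5 epithelial ones (*Cldn3*, *Cldn6*, *Cldn7*, *Krt18* and *Krt19*) lower. Over the whole table, 54.1% of the genes had both *Rhox6* shRNA libraries higher and 407 of 920 had both lower. *Cdh2* and *Ncam1* were also chosen with their levels known, so nothing is read from this split. *Twist1* had a ratio of 3.12 and *Zeb1* of 2.44, beside 2.99 for *Cdh2*. *Cdh2* and *Ncam1* were higher in the same libraries as mesenchymal genes that are not specific to neural cells.

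Markers of other cell states differed between the groups as well. The 5 listed of 9 naive mESC genes were *Nanog*, *Klf4*, *Tbx3*, *Prdm14* and *Nr5a2*. Their summed levels were 187.81 and 191.62 in *scramble* and 496.98 and 512.27 in *Rhox6* shRNA mESCs. Each of the 5 had a level in all libraries, the lowest being 3.70 for *Prdm14* in the first *scramble* library. *Nanog* made up most of each sum, at 125.72 and 126.54 in *scramble* and 314.24 and 331.47 in *Rhox6* shRNA mESCs. Early neural genes were thus higher in the same libraries as naive mESC genes. The 3 listed of 8 primitive endoderm genes (*Gata6*, *Dab2* and *Cubn*) summed to between 27.85 and 29.61 in *scramble* and between 6.64 and 7.21 in *Rhox6* shRNA mESCs. None of 8 fibroblast genes was listed. The part of these markers in the values of the neural genes was not tested.

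**Figure D4:**
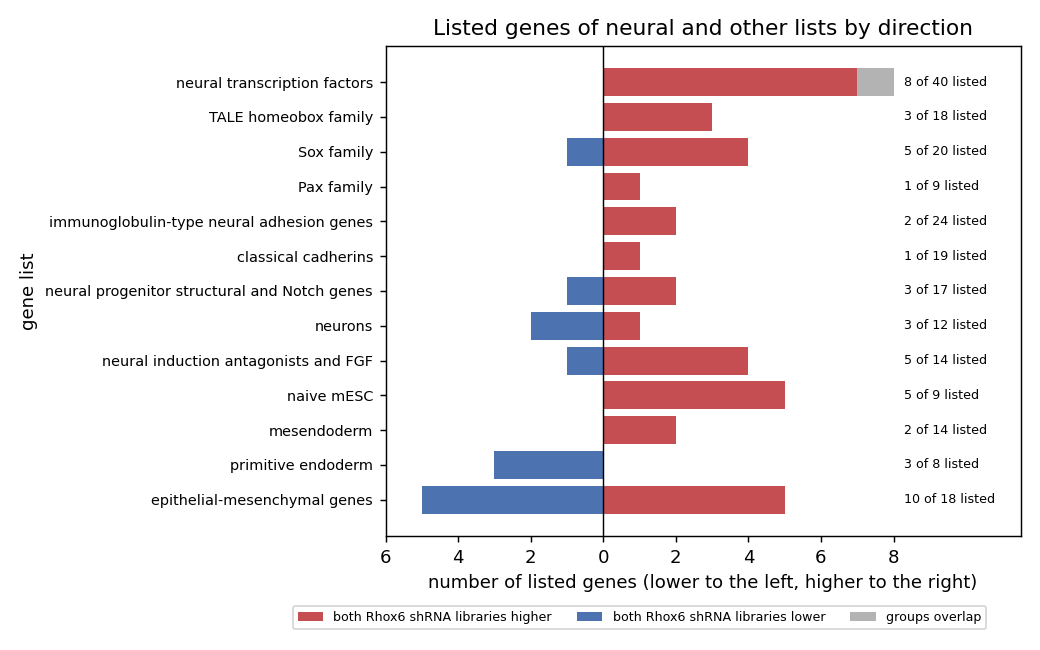
Number of listed genes of each gene list (vertical axis) with both *Rhox6* shRNA libraries above (right, red) or below (left, blue) both *scramble* libraries, or with overlapping groups (grey). The neural transcription factor list has 7 higher genes, 5 of them members, and 0 lower, the neuron list 1 higher and 2 lower. The glia and fibroblast lists, with 0 listed genes, are left out.

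The listed genes with the nearest profiles were found by the Euclidean distance of log2(level + 1) over the 4 libraries. Nearest to the mean of the 5 transcription factor genes were *Trpm1*, a cation channel (distance 0.0984), *Fam189a2* (0.113), *Pla2g4e*, a phospholipase (0.161), and *Hecw2*, a ubiquitin ligase (0.166). *Trpm1* was at 0.57 and 0.58 in *scramble* and 2.13 and 2.43 in *Rhox6* shRNA mESCs. Nearest to the mean of the 3 adhesion genes were *Ptgs1*, a cyclooxygenase (0.151), *Gm13135* (0.187), *Acsbg3* (0.254) and *Skap1*, an adaptor of T cells (0.287). *Ptgs1* was at 2.94 and 2.91 against 6.93 and 8.38. The members themselves were farther from their own means, at 0.356 to 1.21 for the transcription factor genes and 0.333 to 1.46 for the adhesion genes. The nearest genes were picked as the smallest distances among all other listed genes, so nothing is read from this difference.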

How the data were processed

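RNA-seq libraries of 46C mESCs were grouped by their titles, 2 *scramble* and 2 *Rhox6* shRNA. The authors deposited a table of 920 genes with a normalized signal per library, called the level here, with 2 decimals and no named unit, so depth is unknown and no count test was made. Per the submitters' processing notes, Bowtie 0.12.2 and mm9 were used. The role of each, the counter and the annotation were not given in the sources used here. The authors' means, fold changes, log2 fold changes, p-values and adjusted p-values were not used.

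From the levels, the difference of mean log2(level + 1) and its SE were computed (Python 3.11.15, numpy 2.4.6, pandas 2.3.3). The difference without the added 1 and the separation of groups were tried on simulated data. The SE and the effect of adding 1 were not tried in this way. No p-value was computed, since the genes were selected on these libraries, and 2 against 2 libraries allow an exact permutation p of no less than 0.333. The members and gene lists were chosen with earlier results of these data known. Named are the 8 members, listed genes of 15 lists and the 4 nearest profiles per role. Places came from GENCODE M21 (GRCm38, not the build of the processing notes), which held 919 of the 920 gene IDs, and promoter windows from RefSeq. In 9 alternatives, the pseudocount was 0.1 or 0.5, only genes with a mean of at least 1 in the higher group were kept, libraries were scaled to equal sums or by the median ratio, and each library was left out in turn.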

Additional observations from a re-analysis of the deposited data

How the results depend on the processing

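The log2 difference of all 8 genes was above 0 in each of the 9 alternatives. With median-ratio scaling the *Nrcam* groups overlapped, so 7 members had both *Rhox6* shRNA libraries higher, beside 445 of the 920 listed genes. Of 72 values of single genes in the alternatives, 45 stayed within 1 SD, 27 moved by more and 0 reversed. Leaving out 1 of the 2 libraries of a group cannot move a value by more than 1 SD. The filter on low levels does not change a kept gene's own value. Only the pseudocounts and scalings could therefore move a value, and all 27 that moved came from them, so stability is not read from the 45. The lowest difference of a member (0.84) was 1.18 with a pseudocount of 0.1, 1.12 with 0.5, 0.69 with equal sums and 0.28 with median-ratio scaling, and the median (1.08) was 1.57, 1.38, 0.90 and 0.55. The members at 1 or more (7) were 3 with equal sums and 0 with median-ratio scaling. All listed genes at 1 or more higher (285) were 478 with a pseudocount of 0.1, 147 with equal sums and 46 with median-ratio scaling, beside 347, 254 and 345 lower (157). Without 1 library in turn, the lowest difference was 0.79 to 0.87, the median 1.09 to 1.21, the members at 1 or more 5 to 6, all listed genes at 1 or more 265 to 283, and those with separate groups 500 to 504. The widest ranges were those of *Nrcam* (0.80 to 1.31) and *Meis1* (0.85 to 1.25). No paired analysis was possible because no model was fitted and the numbers of the libraries are not stated to mark pairs. Ratios of same-numbered libraries (8.90 and 6.05 for *Pax6*) are among the 4 pairs whose range is given for each gene. The levels have no counts behind them, so counting error cannot be given for the low levels of *Pax6* and *Meis1* in *scramble*.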

Other observations

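Secreted regulators of neural induction were also among the listed genes, 5 of 14, with 4 higher and 1 lower in *Rhox6* shRNA mESCs. Over all listed genes 54.1% had both *Rhox6* shRNA libraries higher and 407 of 920 had both lower, so nothing is read from this count. *Fst*, the activin and BMP antagonist follistatin, was at 1.62 and 1.44 in *scramble* and 8.29 and 6.18 in *Rhox6* shRNA mESCs, a ratio of 4.73. *Sfrp1*, a secreted Wnt antagonist, was at 14.03 and 12.49 against 44.99 and 45.34, and *Lefty1*, a Nodal antagonist, at 147.03 and 149.37 against 335.97 and 304.29. *Fgf2* was at 0.09 and 0.19 against 0.86 and 2.26, so its *Rhox6* shRNA libraries were far apart. *Dkk1*, another Wnt antagonist, was lower, at 0.94 and 1.38 against 0.44 and 0.43. These directions held with both scalings.

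Of 14 mesendoderm genes, *Evx1* and *Kdr* were listed, both higher at levels under 1. Nothing is read from so small a count, beside 54.1% higher over all listed genes. *Evx1* was at 0.04 and 0.09 in *scramble* and 0.63 and 0.77 in *Rhox6* shRNA mESCs, and *Kdr*, the VEGF receptor of endothelial progenitors, at 0.09 and 0.16 against 0.38 and 0.50. *Ednrb*, the endothelin receptor of neural crest cells and a gene of the progenitor and Notch list, was at 0.04 and 0.02 against 0.26 and 0.44.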
